A study of Mus musculus with 38 samples.

Results

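Prrx1 and Prrx2 are paralogous genes that encode paired-type homeodomain transcription factors, and they were taken by symbol from the RNA, chromatin and methylation data, 2 genes of the 25965 in the RNA table. Both were chosen with their RNA values at the 2 ages already known, so those values are described here without a test. The cells were SVZ NSPCs (neural stem/progenitor cells from the subventricular zone, a germinal layer beside the lateral ventricle of the adult brain), taken from male mice at 3 months (young adult) or 18 months (aged) and grown as neurospheres in medium with EGF and FGF. RNA came from 3 libraries per age of strain C57BL/6JBabr and 1 library per age of strain C57BL/10; no transgene or treatment separated the ages. H3K4me3, H3K27me3 and Input ChIP-seq (3 samples per age each) reached the deposited table as 1 value per age, and BS and oxBS sequencing gave 3 libraries per age each. Each C57BL/6JBabr replicate was a separate derivation from the pooled SVZ of several mice, so a library is a pool of animals after passage in culture. More of a transcript per cell and more cells that carry it cannot be told apart.

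PRRX1 and PRRX2 are best known from embryonic mesenchyme of the limb and face, where they act together in skeletal patterning, and PRRX1 is also used as a marker of mesenchymal and fibroblast lineages. In the adult brain PRRX1 has been described in neural stem and progenitor cells. H3K4me3 marks the start sites of active or poised genes, and H3K27me3, the mark of Polycomb repressive complex 2, covers the start sites of developmental regulators that a tissue does not use. Many CpG-rich start sites that carry both marks are silent but open to later activation. DNA methylation (5mC) is normally low in such CpG-rich start sites and high elsewhere. BS reads 5mC and its oxidised form 5hmC together, oxBS reads 5mC alone, and their difference estimates 5hmC.

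Prrx1 lies on the minus strand of chromosome 1, from 163245116 to 163313710 (GRCm38), and its 4 transcripts in the chromatin table start close together, between 163313668 and 163313710. Prrx2 lies on the plus strand of chromosome 2, from 30834972 to 30881241, and its 4 transcripts start at 30834972 (Prrx2-001), 30845059 (Prrx2-002), 30845444 (Prrx2-003) and 30879319 (Prrx2-004). The 300 bases before the outermost start of the Prrx1 cluster and before the Prrx2-002 start are shown because their methylation differed between the genes. The chromatin values cover 5 kb windows around these starts and do not resolve the 300 bases. The Prrx1 bases are chr1:163313711-163314010 on the minus strand and hold no exon of the GENCODE annotation, but they lie inside the first exon of 1 predicted RefSeq transcript model that starts farther upstream. The Prrx2 bases are chr2:30844759-30845058 on the plus strand and lie in an intron of the transcript that starts at 30834972. Both were read from RefSeq GRCm38.p6, 5′ to 3′, with CpG dinucleotides in capitals.
Prrx1: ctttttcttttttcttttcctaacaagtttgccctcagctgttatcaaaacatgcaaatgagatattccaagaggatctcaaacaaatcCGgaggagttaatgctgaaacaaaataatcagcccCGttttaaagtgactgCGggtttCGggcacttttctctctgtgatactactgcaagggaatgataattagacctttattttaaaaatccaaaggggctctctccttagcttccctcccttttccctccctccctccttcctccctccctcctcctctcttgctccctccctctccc
Prrx2: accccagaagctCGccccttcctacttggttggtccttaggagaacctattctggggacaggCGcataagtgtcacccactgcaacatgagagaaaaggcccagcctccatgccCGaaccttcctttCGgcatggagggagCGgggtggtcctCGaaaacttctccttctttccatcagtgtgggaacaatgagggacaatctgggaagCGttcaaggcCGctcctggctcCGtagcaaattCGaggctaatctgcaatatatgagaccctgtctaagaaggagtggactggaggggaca
The Prrx1 bases held 4 CpGs and 44.3% G and C, and the Prrx2 bases held 10 CpGs and 54.3%. Of 32851 RefSeq promoter windows of the same length, 31.4% held fewer CpGs than the Prrx1 bases and 56.5% fewer than the Prrx2 bases. The letters TAATTA, a core that paired-type homeodomains are known to bind and that reads the same on both strands, occurred in the Prrx1 bases and in 5.29% of the promoter windows, and did not occur in the Prrx2 bases. TATAAA, searched on both strands, occurred in neither and in 13.6% of the promoter windows. A match of letters is not a bound site.

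Prrx1 RNA was well detected in NSPCs and lower in the aged cells of both strains. The deposited unit is log2 RPM, the log2 of reads scaled to a common library total. In young adult C57BL/6JBabr cells Prrx1 had log2 RPM of 5.94, 5.82 and 5.92 in replicates 1 to 3. In aged cells it had 5.38, 5.48 and 5.59. All 3 aged libraries lay below all 3 young libraries. The group means were 5.89 ± 0.06 and 5.49 ± 0.11 (SD, n = 3), or 59.5 ± 2.55 and 44.9 ± 3.30 RPM, which is a log2 difference of -0.41 (SE 0.09, limma) and 24.6% less RNA. The difference was negative in each same-numbered pair, at -0.56, -0.34 and -0.32, and lay between -0.46 and -0.35 over the 13 fits that were run. Of 14858 genes tested, 2.05% had non-overlapping ages with the lower values at 18 months, and 3.14% with the higher. With limma and Benjamini-Hochberg adjustment 0% of genes were called in either direction without the replicate number as a block, and with it 0.296% were called lower and 0.202% higher. Without the block 258 of the 14858 genes had an unadjusted p under 0.05 (limma), and 7346 had a lower mean in aged cells.

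C57BL/10 had 1 library per age and no replicate check, and its mice were kept at another facility, so strain and housing cannot be told apart. Prrx1 stood at a log2 RPM of 6.28 in the young and 5.60 in the aged library, from 2107 and 1191 reads. The aged to young ratio was 0.625, with an exact 95% counting interval from 0.582 to 0.671 that holds counting error only. Of the genes tested, 5% were at least 1.5-fold lower in the aged C57BL/10 library. In order of log2 RPM, Prrx1 was highest in young C57BL/10, then young C57BL/6JBabr, aged C57BL/10 and aged C57BL/6JBabr. The aged C57BL/10 value was just above the highest aged C57BL/6JBabr library (5.59) and below the lowest young one (5.82).

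Prrx2 RNA was low in every library, with 3 to 31 reads each. In young adult C57BL/6JBabr cells its log2 RPM was -0.41, -0.28 and -1.54, from 31, 14 and 9 reads. In aged cells it was -1.51, -1.47 and -1.84, from 14, 10 and 11 reads. Young replicate 3 fell below aged replicates 1 and 2, so the ages overlapped. The means were -0.74 ± 0.69 and -1.61 ± 0.20 (SD, n = 3), a log2 difference of -0.87 (SE 0.42, limma). That difference was -0.64 without young replicate 2 and -1.27 without young replicate 3. In C57BL/10 the order of the ages was the opposite, with -3.18 from 3 reads in the young and -1.62 from 8 reads in the aged library. The aged to young ratio there was 2.95, with an exact 95% counting interval from 0.708 to 17.3 that includes equal levels, and 5.16% of the genes tested were at least 1.5-fold higher in the aged C57BL/10 library.

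**Figure D1:**
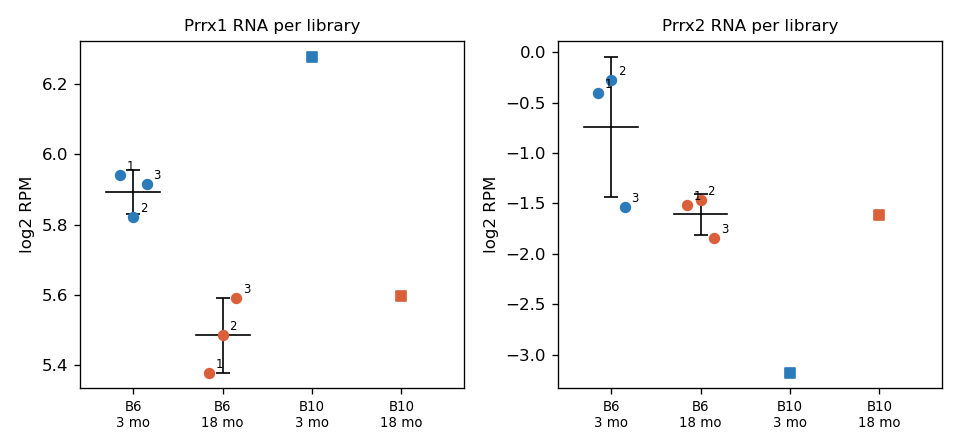
Log2 RPM of Prrx1 (left) and Prrx2 (right) in each RNA library, with blue for 3 months, orange for 18 months, circles for C57BL/6JBabr (B6) with replicate numbers, and squares for the single C57BL/10 (B10) libraries; black lines are the mean ± SD of 3. The aged Prrx1 values (5.38 to 5.59) lie below all young ones of the same strain (5.82 to 5.94), while the Prrx2 ages overlap.

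Prrx1 had more RNA than Prrx2 in every library. Per kilobase of exon (11.1 kb for Prrx1 and 1.96 kb for Prrx2), the Prrx1 level exceeded the Prrx2 level by 3.60 to 4.96 on the log2 scale in the 6 C57BL/6JBabr libraries, and by 6.96 and 4.72 in the young and aged C57BL/10 libraries. On the same log2 RPM per kilobase scale the young means were 2.42 ± 0.06 for Prrx1 and -1.71 ± 0.69 for Prrx2 (SD, n = 3). Among genes with a read, 66.2% had a lower log2 RPM per kilobase than Prrx1 at 3 months and 60.6% at 18 months, and 28.6% and 25.6% were lower than Prrx2. Pearson's r of the log2 RPM of Prrx1 and Prrx2 over the 8 RNA libraries was -0.28, but its sign rests on the young C57BL/10 library, which had 3 Prrx2 reads. Without that library r was 0.60 over 7 libraries, and over the 6 C57BL/6JBabr libraries alone it was 0.59, with both genes lower in aged cells in each of the 3 same-numbered pairs. These values are a description, since the libraries share ages and strains. The libraries were not strand-specific. The antisense gene Gm20471, which lies inside an intron of Prrx1, had a log2 RPM of -5.51 to -4.24 over the 8 libraries. A gene with no read holds the value of 0.9 reads, and these values lay at or near that floor. The highest, -4.24 in young replicate 2, was the floor of the library with the fewest reads. The part of Gm20471 reads in the Prrx1 value was not tested.

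The 5 genes whose log2 RPM was most like that of Prrx1 over the 8 libraries, among 14857 others, were Pdpn (r = 0.95), Tm4sf1 (r = 0.95), Smpdl3a (r = 0.94), C1qtnf1 (r = 0.94) and Gbp5 (r = 0.94). These are the highest of many correlations over libraries that share age and strain, and Prrx1 was chosen for its age values, so the age differences and p of these genes follow in part from how they were picked and are no independent evidence. Pdpn encodes podoplanin, a membrane glycoprotein, Tm4sf1 a tetraspanin-like membrane protein, Smpdl3a a phosphodiesterase, C1qtnf1 a secreted C1q and TNF related protein, and Gbp5 an interferon-induced GTPase. In C57BL/6JBabr the log2 difference between the ages was -0.56 (SE 0.12) for Tm4sf1, from a mean of 7.18 to 6.62. Tm4sf1 passed the limma threshold with the replicate block (Benjamini-Hochberg adjusted p = 0.014) and not without it. Pdpn stood at a mean of 5.53 and 5.18, a log2 difference of -0.36 (SE 0.10), with an adjusted p of 0.053 in the limma fit with the block. Smpdl3a, C1qtnf1 and Gbp5 had log2 differences of -0.21, -0.12 and -0.49, with adjusted p of 0.31, 0.74 and 0.32 in that fit. The genes most like Prrx2, over the same 8 libraries with 3 to 31 Prrx2 reads each, were Pex10 (r = 0.98), Lag3 (r = 0.95), Dut (r = 0.94), Thy1 (r = 0.90) and Ttn (r = 0.90). Each of these genes had its lowest log2 RPM in the young C57BL/10 library, which also had the fewest Prrx2 reads (3). Their r without that library was not computed. Pex10 encodes a ubiquitin ligase of the peroxisome and Dut the enzyme that removes dUTP, and their log2 differences between the ages were -0.09 (SE 0.13) and -0.10 (SE 0.11). Lag3, an inhibitory receptor of T cells, stood at a mean log2 RPM of -1.13 and -1.90, Thy1, a cell surface glycoprotein, at 1.75 and 1.04, and Ttn, the giant sarcomere protein titin, at 1.16 and 0.85. None of the 5 passed the limma threshold with the block, where the lowest adjusted p was 0.31, for Thy1.

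Prrx1 had the highest level of the paired-type homeobox genes examined in these cells. Of 30 other genes of the class, none had a higher mean log2 RPM per kilobase of exon in young adult C57BL/6JBabr cells than Prrx1 (2.42), and 5 had a higher one than Prrx2 (-1.71). On that scale Phox2a, an autonomic neuron factor, had 1.34 and Pax6, a neural progenitor factor, had 0.99. Of the 30 genes, 25 had a mean log2 RPM below -2 in young adult cells, and 5 reached the filter for testing. By limma without the block none of these 5 was called in either direction, beside 0% of all genes tested. Of the 5, 1 had an unadjusted p under 0.05, beside 258 of all 14858 genes tested. Their median log2 difference was 0.03 beside 0.0015 over all genes. EdgeR, DESeq2 and limma with the block also called none of the 5. Over all genes edgeR called 0 in either direction, and DESeq2 called 0 higher and 4 lower. Limma with the block called 0.202% of all genes tested higher and 0.296% lower. The largest differences among the 5 were in Otx2 and Otx1, which pattern the forebrain, and in Pitx3, a dopamine neuron factor. Otx2 had 1.00, 1.34 and 1.62 in young and 0.23, 0.38 and 1.00 in aged libraries, a log2 difference of -0.78 (SE 0.28). Otx1 stood at a mean of 2.57 and 2.05 (-0.51, SE 0.26) and Pitx3 at -0.93 and -0.66 (0.26, SE 0.54). With the block the SEs were 0.18 for Otx2, 0.13 for Otx1 and 0.35 for Pitx3.

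By limma without the block no gene of the mesenchymal lists was called between the ages, beside 0% of all genes tested in either direction. Of 25 mesenchymal transcription factors 8 were tested, 6 of them with a higher and 2 with a lower mean in aged cells. None was called and none had an unadjusted p under 0.05 (limma), and the median log2 difference was 0.10. Foxc2 and Foxc1, forkhead factors of mesoderm, had log2 differences of -0.70 (SE 0.58) and -0.52 (SE 0.69), and Msx1, a homeobox factor of limb and craniofacial mesenchyme, had 0.67 (SE 0.57). With the block the SEs were 0.37 for Foxc2, 0.21 for Foxc1 and 0.26 for Msx1. Of 22 mesenchymal matrix and contractile genes 17 were tested, 13 with a lower mean in aged cells, none was called, 2 had an unadjusted p under 0.05 and the median was -0.09. Over all 14858 genes tested, 7346 had a lower mean in aged cells and 258 an unadjusted p under 0.05, with a median of 0.0015. Thy1 in this list had log2 RPM of 1.85, 2.18 and 1.23 in young and 1.20, 0.73 and 1.17 in aged cells (-0.72, SE 0.28). It was 1 of 2 genes of the 17 with non-overlapping ages and lower aged values, beside 2.05% of all genes tested. Tagln, a smooth muscle actin-binding protein, had a mean of 2.19 and 1.56 (-0.64, SE 0.38), and Cnn1, smooth muscle calponin, had -1.90 and -1.54 (0.35, SE 0.93). With the block the SEs were 0.23 for Thy1, 0.15 for Tagln and 0.51 for Cnn1. For both lists edgeR, DESeq2 and limma with the block called no gene. Over all genes edgeR called 0 in either direction, and DESeq2 called 0 higher and 4 lower. The block fit called 0.202% of all genes tested higher and 0.296% lower.

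A list of 10 genes that the study assayed beside Prrx1, partly picked on these samples and so no independent evidence, was also examined. By limma without the block none of the 10 was called, beside 0% of all genes tested in either direction. Of the 10, 5 had an unadjusted p under 0.05, beside 258 of all 14858 genes tested, and the median log2 difference was -0.14. With the block 0.202% of all genes tested were called higher and 0.296% lower, and 1 of the 10 was called. That gene was Gsx1, a homeobox factor of ventral progenitors, which had a mean of 2.41 ± 0.49 in young and 3.09 ± 0.36 in aged cells (SD, n = 3), a log2 difference of 0.68 (block SE 0.13, limma adjusted p = 0.043 with the block and 1.00 without it). Dbx2, a homeobox transcription factor, had 5.65, 5.64 and 5.73 in young and 6.24, 5.74 and 6.42 in aged libraries. Its log2 difference was 0.46 (SE 0.16, block SE 0.10), opposite in sign to that of Prrx1, with a limma adjusted p of 0.081 with the block. Igf2bp2, an RNA-binding protein, had 5.57, 5.50 and 5.39 in young and 4.90, 5.33 and 4.42 in aged libraries (-0.60, SE 0.20, block SE 0.12, limma adjusted p = 0.057 with the block). Dll4, a Notch ligand, had a mean of 3.59 and 2.91 (-0.68, SE 0.51, block SE 0.13, limma adjusted p = 0.053 with the block). The ages of Gsx1 and Dll4 overlapped. Of the 10 genes 1 had non-overlapping ages with higher aged values (Dbx2) and 3 with lower ones (Igf2bp2 among them), beside 3.14% and 2.05% of all genes tested.

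The libraries expressed neural progenitor markers far above those of mesenchyme. The RNA libraries were scaled to 16952486 to 41053972 reads, as recovered from the values. The 10 neural stem/progenitor markers summed to 3440 to 4809 RPM in young and 3277 to 4505 RPM in aged C57BL/6JBabr libraries, with a read for every one. Vascular and leptomeningeal fibroblast markers, a lineage that Prrx1 also marks, summed to 2.66 to 12.8 RPM in young and 2.5 to 7.30 RPM in aged libraries. In every library of that strain the summed fibroblast list of 12 genes was below the 41.6 to 61.4 RPM of Prrx1 alone, and the pericyte and smooth muscle list was above it. These sums are not corrected for exon length, which was 11.1 kb for Prrx1. The fibroblast gene Aldh1a2 had no read. The 10 pericyte and smooth muscle markers summed to 96.3 to 105 RPM and 96.3 to 110 RPM, 8 endothelial markers to 12.4 to 23.6 and 11.7 to 19.4 RPM, and 8 microglial markers to 5.85 to 7.63 and 5.25 to 6.36 RPM, with C1qa at no read. Astrocyte markers (7 genes) summed to 2026 to 2400 and 1829 to 2043 RPM and oligodendrocyte precursor markers (6 genes) to 1140 to 1296 and 1281 to 1340 RPM. Neuroblast and neuron markers (6 genes) summed to 13.3 to 17.5 and 12.7 to 15.7 RPM, and ependymal markers (5 genes) to 52.2 to 133 and 60.9 to 125 RPM. Their part in the Prrx1 values was not tested.

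The start sites of the paralogs differed in chromatin. The deposited values are log2 RPM in 5 kb windows centred on each start, with 1 value per age and no replicate error. The 4 Prrx1 windows, which overlap almost wholly, had H3K4me3 of 6.54 to 6.55 at 3 months and 6.65 to 6.66 at 18 months. The Prrx1-001 window was above 98.8% of the 72923 windows at 3 months. H3K27me3 there was 1.57 and 1.48 at the 2 ages, above 81.0% and 79.9% of windows, beside an Input of 0.78 and 1.02. At Prrx2 the Prrx2-002 window had both marks, with H3K4me3 of 3.25 and 3.31 and H3K27me3 of 3.68 and 4.00 (Input 0.82 and 1.16). Its H3K27me3 was above 96.1% of windows at 3 months while its H3K4me3 was near the middle, above 47.9%. Windows with both marks at least as high made up 2.56% of all windows at 3 months and 2.17% at 18 months. The Prrx2-003 window, which shares most of its bases with Prrx2-002, had H3K4me3 of 3.24 and 3.31 and H3K27me3 of 3.62 and 3.93.

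The outer Prrx2 starts had little H3K4me3. Prrx2-001 had H3K4me3 of 0.06 and -1.17, below its Input of 1.07 and 1.61 at both ages. Its H3K27me3 of 1.83 and 2.09 was above Input and above 84.5% of windows at 3 months and 87.1% at 18 months. Prrx2-004 had H3K4me3 of 0.04 and -0.19 and H3K27me3 of 1.10 and 0.79, beside an Input of 1.09 and 1.03. H3K4me3 at Prrx2-001 was thus more than 1.5-fold lower at 18 months, but at a level under that of Input.

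**Figure D2:**
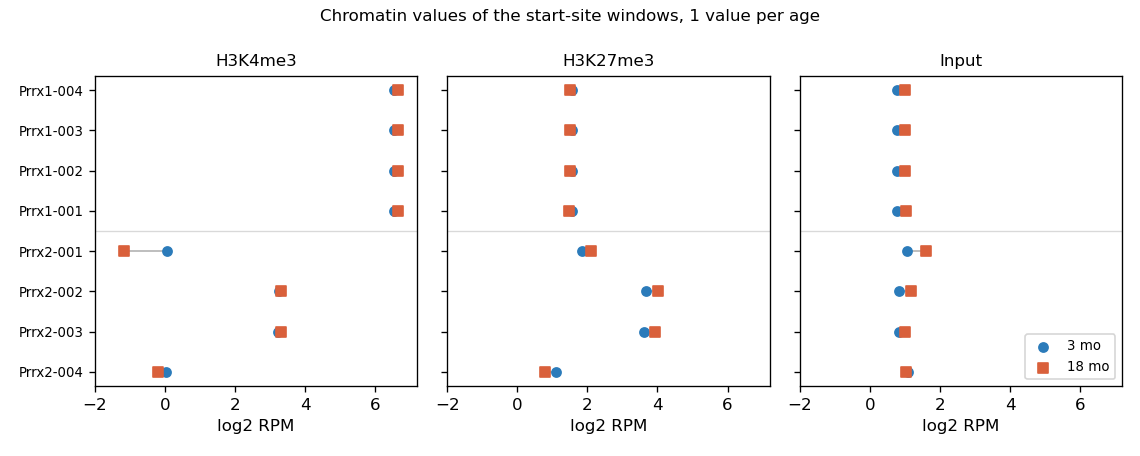
Values (log2 RPM) in the 8 windows of 5 kb centred on the start sites of Prrx1 and Prrx2, for H3K4me3, H3K27me3 and Input, with 1 value at 3 months (blue circles) and at 18 months (orange squares). Prrx1 windows have high H3K4me3 (6.54 to 6.66) and H3K27me3 of 1.48 to 1.57, and Prrx2-002 and Prrx2-003 have intermediate H3K4me3 and the highest H3K27me3 of the 8 windows (3.62 to 4.00).

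Neither mark changed at these windows by the size used for a call, at least 1.5-fold with a log2 RPM above 1 at an age. None of the 8 windows passed for either mark, beside 0.048% of all windows with higher and 0.156% with lower H3K4me3, and 0.573% with higher and 0.717% with lower H3K27me3. H3K4me3 of windows above a log2 RPM of 1 had a median change of 0.21, so the change of 0.11 at Prrx1-001 and 0.06 at Prrx2-002 was below that median. H3K4me3 of Prrx1-001 and Prrx2-002 relative to that median was -0.10 and -0.15. H3K27me3 at Prrx2-002 differed by 0.32 between the ages and at Prrx1-001 by -0.09, beside a median of 0.04. Input at the same windows moved by 0.34 and 0.24, and with Input subtracted H3K27me3 changed by -0.02 at Prrx2-002 and by -0.33 at Prrx1-001. Its part in the change was not tested beyond that subtraction.

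Within the paired-type class Prrx1 had more H3K4me3 and less H3K27me3 than most genes. For each gene the window with most H3K4me3 at 3 months was used. Of the 30 other genes, 1 had more H3K4me3 than Prrx1 (Otx1, 6.59) and 2 had less H3K27me3. Of the 25 with a mean RNA log2 RPM below -2, 24 had more H3K27me3 than Prrx1. Of the 30 genes, 23 had more H3K27me3 than Prrx2 and 15 more H3K4me3. Pax6 had H3K4me3 of 6.26 and H3K27me3 of 0.41. Otx2, although expressed, had 4.98 and 5.78, and Phox2a, also above the RNA filter, had 2.58 and 4.58.

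**Figure D3:**
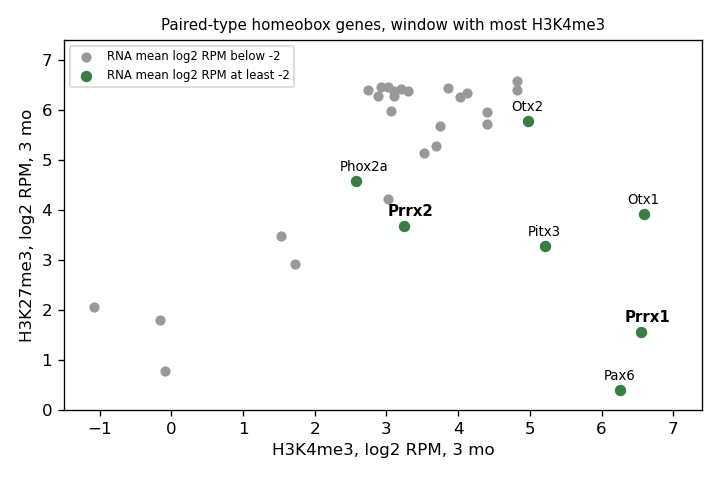
H3K4me3 (x axis) and H3K27me3 (y axis), both log2 RPM at 3 months, of Prrx1, Prrx2 and 30 other paired-type homeobox genes, each at the window with most H3K4me3; green points have a mean RNA log2 RPM of at least -2 and are named. Prrx1 lies at the lower right (6.55 and 1.56) near Pax6, and Prrx2 (3.25 and 3.68) lies below the cluster of genes with high H3K27me3.

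DNA methylation was near 0 around the start of Prrx1, over a longer stretch than at Prrx2. Calls were summed over the 3 libraries of an age in steps of 500 bases along each gene, and the bounds of the low stretches were set after seeing those steps. From 500 bases before to 2000 bases after the Prrx1-001 start, 4 of 336 oxBS calls were methylated at 3 months (1.19%, 95% Wilson interval 0.464 to 3.02%) and 3 of 258 at 18 months (1.16%, 0.396 to 3.36%). From 2500 to 1000 bases before that start the share was 86.4% (77.7 to 92.0%) and 80.4% (68.2 to 88.7%). The low stretch of Prrx2 lay after the Prrx2-002 start, where 10 of 185 calls over 1000 bases were methylated at 3 months (5.41%, 2.96 to 9.66%) and 4 of 136 at 18 months (2.94%, 1.15 to 7.32%). From 2500 to 500 bases before it the share was 72.9% (62.7 to 81.2%) and 73.3% (61.0 to 82.9%). All these intervals hold counting error only, since copies made by PCR are not independent molecules. At each gene the intervals of the ages overlapped.

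The printed bases were chosen for their methylation, so their values are a description, and they rest on few calls. In the 300 bases before the Prrx1 cluster no oxBS call was methylated, 0 of 12 at 3 months and 0 of 10 at 18 months. With 3 calls taken as the limit of a count of 0, these counts allow a share of up to 25% and 30%. In the 300 bases before Prrx2-002, 19 of 44 oxBS calls (43.2%) and 11 of 22 (50.0%) were methylated. In BS the order of the ages was the opposite there, with 12 of 23 calls (52.2%) in young and 16 of 42 (38.1%) in aged cells. The CpG islands (at least 500 bases, called on GRCm38 by base composition) lay inside the Prrx1 gene downstream of its start cluster, at 163311848 to 163312886 on chromosome 1, and just after the internal Prrx2-002 start, at 30845083 to 30845893 on chromosome 2. In oxBS the Prrx1 island had no methylated call in 5 of 6 libraries, which allows up to 3.66% (0 of 82 calls) to 10.0% (0 of 30 calls), and 1 of 36 calls in aged replicate 2. The Prrx2 island had 10.0, 2.5 and 3.23% in young and 0, 0 and 2.27% in aged libraries, from 40 to 80 calls each. Those ages did not overlap, with exact two-sided permutation p = 0.1 and 0.6 after Benjamini-Hochberg adjustment over 18 region tests. The closest libraries were young replicate 2, with 2 of 80 calls methylated, and aged replicate 3, with 1 of 44. Of all oxBS promoter windows 4.49% had non-overlapping ages with lower aged values, and no such share was computed for islands. In BS the same island had a mean of 4.09 ± 2.14% and 3.75 ± 1.76% (SD, n = 3), and the ages overlapped.

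**Figure D4:**
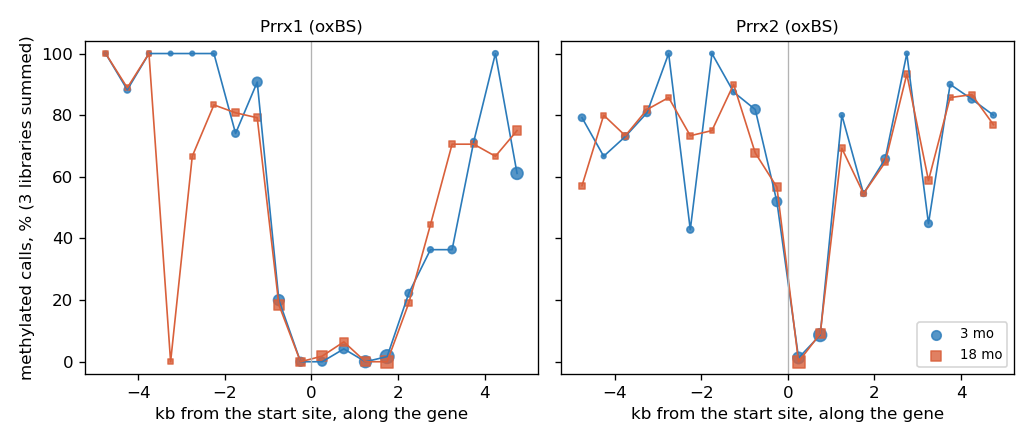
Share of oxBS calls that were methylated (y axis, %) in steps of 500 bases along Prrx1 from the Prrx1-001 start and along Prrx2 from the Prrx2-002 start (x axis, kb), with 3 libraries summed per age; larger points hold more calls, and some outer points rest on fewer than 10. The low stretch runs from about -0.5 to 2 kb at Prrx1 and from 0 to 1 kb at Prrx2 at both ages.

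Promoter methylation was compared between the ages in the same 5 kb windows as the chromatin marks. The 4 Prrx1 windows hold the same calls and the 8 windows give 5 distinct sets. The Prrx1 window had oxBS methylation of 25, 15.3 and 18.0% in young and 17.4, 11.8 and 19.6% in aged libraries, from 109 to 190 calls each. The libraries with the highest and lowest share had 95% Wilson intervals of 19.0 to 32.1% (young replicate 1) and 7.57 to 17.8% (aged replicate 2). The means were 19.4 ± 5.03% and 16.3 ± 4.03% (SD, n = 3) and the ages overlapped (exact two-sided permutation p = 0.5). In BS the means were 18.6 ± 4.98% and 15.6 ± 3.68% (exact two-sided permutation p = 0.4).

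At Prrx2-001, whose window had H3K4me3 under Input, oxBS methylation was 51.8, 49.4 and 48.6% in young and 69.2, 59.7 and 56.8% in aged libraries, from 44 to 89 calls each. Every aged library lay above every young one, with means of 50.0 ± 1.63% and 61.9 ± 6.50% (SD, n = 3). The exact two-sided permutation p was 0.1, the smallest that 3 against 3 allows, and 0.6 after adjustment over the 18 tests. The quasi-binomial model over all 69697 windows gave a difference of 12.2 points with a Benjamini-Hochberg adjusted p of 0.94. In oxBS 5.69% of windows had non-overlapping ages with higher aged values and 4.49% with lower ones. BS did not show the same order, with 54.5, 44.3 and 54.6% in young and 50.0, 54.3 and 54.3% in aged libraries, overlapping ages and a modelled difference of 1.59 points.

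Prrx2-002 had oxBS methylation of 36.3, 31.8 and 39.3% in young and 34.1, 32.2 and 36% in aged libraries (exact two-sided permutation p = 0.6). In BS it had 43.6, 40.3 and 48.0% in young and 42.9, 37.0 and 37.2% in aged libraries, a modelled difference of -5.44 points, and the ages overlapped (exact two-sided permutation p = 0.2). Prrx2-003 was 36 ± 4.54% and 34.9 ± 2.40% in oxBS (SD, n = 3). In BS it had 41.8, 42.2 and 46.0% in young and 41.4, 34.2 and 40.0% in aged libraries, which did not overlap (exact two-sided permutation p = 0.1, the smallest possible, and 0.6 after adjustment over the 18 tests). The nearest libraries were replicate 1 of each age, with 38 of 91 calls methylated in young and 48 of 116 in aged cells. By the mean of the percentages of single CpG positions the ages overlapped (exact two-sided permutation p = 0.2). In BS 4.49% of 71024 windows had non-overlapping ages with lower and 5.11% with higher aged values. Prrx2-004 was methylated throughout, at 83.0 ± 4.88% and 83.5 ± 0.78% in oxBS and 84.9 ± 3.41% and 83.0 ± 2.65% in BS (SD, n = 3). By the quasi-binomial model none of the 5 sets was called in oxBS or BS, beside 0% of all windows in either direction, with 3702 (oxBS) and 3460 (BS) windows at an unadjusted p under 0.05.

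**Figure D5:**
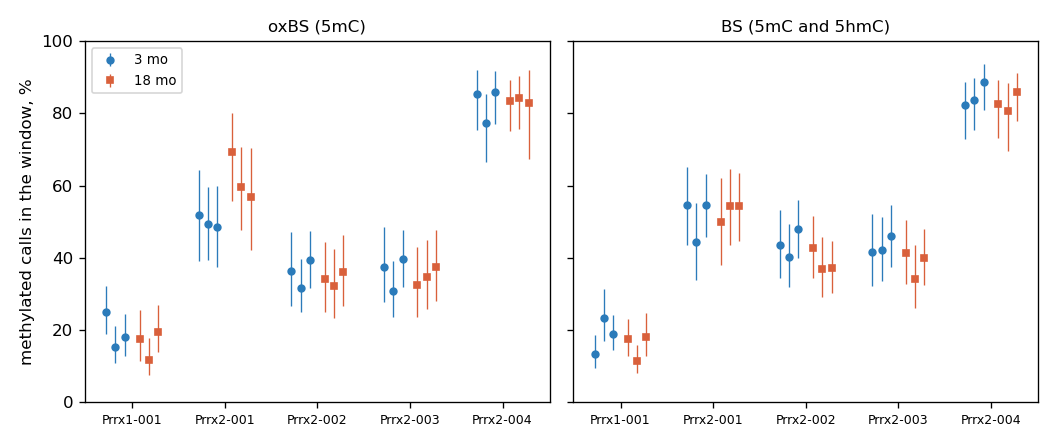
Share of methylated calls (y axis, %) in the 5 kb windows of the start sites (x axis) in each oxBS (left) and BS (right) library, with blue circles for 3 months and orange squares for 18 months in the order of replicates 1 to 3; bars are 95% Wilson intervals of a single library. The oxBS ages of Prrx2-001 do not overlap (48.6 to 51.8% and 56.8 to 69.2%), while its BS ages do.

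The difference between BS and oxBS of the same replicate number, the estimate of 5hmC, had both signs at Prrx1. It was -11.5, 8.17 and 0.99 points in young and 0.02, -0.38 and -1.55 points in aged replicates 1 to 3, and a true level of 5hmC cannot be below 0. At Prrx2-002 it was above 0 in all 6 replicates, at 7.31, 8.55 and 8.66 points in young and 8.79, 4.82 and 1.24 points in aged cells. The means there were 8.17 ± 0.75 and 4.95 ± 3.78 points (SD, n = 3), and the ages overlapped (exact two-sided permutation p = 0.4). The direction there depended on the window, since with 1 kb on either side of the start the aged minus young difference was 5.72 points in place of -3.22 (exact two-sided permutation p = 0.1, the smallest possible). The sign of the level depended on it too. With 1 kb on either side and the libraries of an age summed, young cells had 26.1% in BS and 28.1% in oxBS. Aged cells had 24.7% in BS and 21.3% in oxBS. Prrx2-003, which shares calls with Prrx2-002, had means of 7.33 ± 3.64 and 3.64 ± 4.76 points. At Prrx2-001 the means were 1.20 ± 5.72 and -9.05 ± 8.93 points and at Prrx2-004 1.98 ± 4.94 and -0.52 ± 3.39 points. At Prrx2-001 it was below 0 in 4 of 6 replicates, among them every aged one.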

How the data were processed

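The submitters' processing notes name Trim Galore (versions 0.3.7 and 0.4), STAR 2.3.0, Bowtie2 2.2.5 and Bismark 0.12.5, and build GRCm38. The authors deposited RNA as log2 RPM per gene and ChIP as log2 RPM per start-site window with 1 value per age. The paper describes its plotted ChIP data as averages of the biological replicates; whether reads or log2 values were averaged was not stated. The methylation files hold, per the file headers and values, a percent and the counts of methylated and unmethylated calls per cytosine, and the deposited counts were summed here. Library totals were 13616283 to 21389132 calls in oxBS and 23121086 to 30400033 in BS, at 1.20 to 1.48 calls per covered position.

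Prrx1, Prrx2 and the gene lists were chosen with earlier results of these data known. A gene of the paired-type homeobox list is not reported here and was left out of its counts. Genes named beside them are the 5 with the highest Pearson r to each, Dbx2, and, in each list, genes past the threshold or else the 3 with the largest difference. Genes whose mean log2 RPM reached -2 were fitted with limma 3.58.1 (mean-variance trend, Benjamini-Hochberg, 0.05), without a block. The paper names limma with multiple-testing correction at the same threshold and reports genes called in both directions, Dbx2 among them. The fit here without the block called no gene, and the cause of that difference was not tested. Values between 1 and 1000 reads were whole reads in 100% of cases (within 0.02), which gave depth and the edgeR 4.0.16 and DESeq2 1.42.0 alternatives. Same-numbered RNA libraries deviated together (r = 0.73, 0.20 and 0.83 over 13280 genes), so the numbers were taken to pair them, and the fit with the block is given where it changes a call. The study's replicates were derived on different days.

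Windows that held 10 calls or more in each library were tested with a quasi-binomial model (dispersion moderated across windows, at least 1). A call needed an adjusted p under 0.05 and 10 points. Single regions were tested with exact two-sided permutation tests in scipy. Both models were checked on simulated data. Alternatives were other scalings, filters, windows, weightings, the replicate block and leaving out each library.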

Additional observations from a re-analysis of the deposited data

Results flagged for a closer look

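Prrx2 RNA differed in the direction of its change between the C57BL/6JBabr and C57BL/10 libraries, whose mice also differed in housing facility. Each of the 3 same-numbered C57BL/6JBabr pairs had less Prrx2 in aged cells, by -1.11, -1.19 and -0.31 on the log2 RPM scale, while the single C57BL/10 pair had more, by 1.56. That difference was not tested, and the C57BL/10 value rests on 3 and 8 reads, with an exact 95% counting interval of the ratio from 0.708 to 17.3. Prrx1 was lower in aged cells in all 4 pairs, with a log2 RPM difference of -0.68 in C57BL/10.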

How the results depend on the processing

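The RNA difference of Prrx1 kept its sign in every fit run, from -0.46 to -0.35 with each library left out in turn, and that of Prrx2 ranged from -1.27 to -0.64. Chosen after seeing the data, r of Prrx1 with Prrx2 was 0.59 in C57BL/6JBabr alone and 0.60 without the young C57BL/10 library, in place of -0.28. Prrx2 could not be fitted under the filter of a mean log2 RPM of at least 0. With the replicate block, the list of genes assayed beside Prrx1 had 1 called gene in place of 0, and over all genes 30 were called higher and 44 lower in place of 0 and 0; DESeq2 called 4 lower. Every RNA sample correlated best with its own number. In methylation same-numbered windows did not deviate together (r from -0.004 to 0.033), and the replicate block changed no call there.

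Most signs that turned were of differences near 0. H3K4me3 at Prrx1-001 became -0.13, -0.10 and -0.13 with Input subtracted, the median change subtracted and quantile normalization, at Prrx2-002 -0.28, -0.15 and -0.0079, at Prrx2-003 -0.10 and -0.14 with Input and with the median change subtracted, and at Prrx2-004 0.0489 under quantile normalization. H3K27me3 became -0.29 at Prrx2-001 and -0.0171 at Prrx2-002 with Input subtracted. With windows of 1 kb on either side, the methylation difference in points became 0.0214 (oxBS) and 1.80 (BS) at Prrx1-001, -1.47 at Prrx2-001 and 0.491 at Prrx2-004 (both BS), and the 5hmC difference became -0.0781 at Prrx1-001 and 5.72 at Prrx2-002 (exact permutation p = 0.1). The methylation differences of the other 3 Prrx1 windows stayed below 0 there (-0.99 to -0.63). The cause was not tested.

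Leaving out each library gave oxBS differences from -5.45 to -0.527 points at Prrx1, 8.79 to 14.1 at Prrx2-001, -4.14 to 0.749 at Prrx2-002, -3.89 to 1.61 at Prrx2-003 and -2.12 to 2.43 at Prrx2-004. In BS they ran from -5.29 to -0.241 at Prrx1, -1.37 to 3.87 at Prrx2-001, -7.34 to -2.97 at Prrx2-002, -5.96 to -2.90 at Prrx2-003 and -3.32 to 0.329 at Prrx2-004. For 5hmC, without each replicate, they ran from -5.55 to 4.50 at Prrx1, -15.2 to -4.38 at Prrx2-001, -5.57 to -1.12 at Prrx2-002, -7.83 to 0.408 at Prrx2-003 and -5.01 to 1.39 at Prrx2-004. No window was called under any of these settings. Prrx2-001 and Prrx2-004 had too few oxBS calls for the minimum of 50. Chromatin marks have no replicate error, and Prrx2 RNA is limited by its 3 to 31 reads per library.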

Other observations

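Methylation was also summed over each whole gene. In oxBS the Prrx1 gene body had 65.1, 63.2 and 66.4% in young and 73.5, 70.1 and 65.3% in aged libraries, from 449 to 790 calls each. Aged replicate 3 lay among the young values (means 64.9 ± 1.63% and 69.6 ± 4.13%, SD, n = 3, exact two-sided permutation p = 0.2). In BS the means were 66.7 ± 2.37% and 67.8 ± 3.37%. The Prrx2 gene body had means of 60.3 ± 4.72% and 62.5 ± 1.65% in oxBS and 62.5 ± 2.80% and 63.6 ± 2.57% in BS.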
